A study of Mus musculus with 6 samples.

Results

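Matrix metalloproteinases (Mmps) and their tissue inhibitors (Timps) were followed in mouse embryonic stem cells (mESCs) cultured with or without a cytokine of the interleukin 6 family. The 9 genes were the rows of the expression table with the symbols Mmp2, Mmp3, Mmp9, Mmp10, Mmp13, Mmp14, Timp1, Timp2 and Timp3, out of 28584 genes in all. They were chosen on measured values, because Mmp3 was among the genes with the largest differences between cells with and without cytokine. The levels against cells without cytokine are therefore given as a description: calls of these genes are counted there beside those of all genes, and nothing is read from them. The comparison of the cytokines with each other was not used for the choice and is tested.

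The mESC line came from a blastocyst of C57BL/6 and 129S6 parents and had been grown on mitomycin C-inactivated mouse embryonic fibroblasts (MEFs, feeder cells) in serum with leukemia inhibitory factor (LIF). It was then kept in the same serum-based basic medium with no cytokine (-LIF-ESCs), with LIF at 1000 U/mL (LIF-ESCs) or with oncostatin M (OSM) at 10 ng/mL (OSM-ESCs), and RNA was taken after 10 passages. Each group had 2 libraries of polyadenylated RNA, all from this single line, and the sources used here do not say whether feeder cells were present after the transfer. By morphology, the study describes the clones of -LIF-ESCs as differentiated and those of the cytokine groups as undifferentiated. The study asked whether OSM can take the place of LIF, and the question here is how the transcripts of these proteinases and inhibitors stood in the 3 media.

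Mmps are zinc-dependent proteinases that are made as inactive proenzymes and that cut collagens, proteoglycans and other proteins of the extracellular matrix. Timps bind the active site of Mmps and block it, so that local proteolysis depends on the balance of both. LIF and OSM act through receptors that share the gp130 subunit and signal to Stat3, and OSM is a known inducer of Mmps and Timp1 in fibroblasts and other connective tissue cells.

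Values are TPM, a share of all transcripts in a library, which are scaled by gene length and can be set side by side between genes. The libraries held between 20712941 and 28994418 reads, as recovered from TPM and exon length. Of all genes, 18556 reached 1 TPM in 2 or more libraries and were tested, all 9 genes among them. All 8 pluripotent cell markers were expressed in every library, from 95.1 TPM for Esrrb in -LIF-ESCs to 3090 TPM for Dppa5a in LIF-ESCs. The median gene lay 0.17 higher on the log2 scale with LIF and 0.18 higher with OSM than without cytokine, and it differed by 0.01 between the cytokines, higher with OSM. Rescaling of the libraries by their median ratio brought these medians to 0.02, 0.02 and 0.00, so a difference from -LIF-ESCs is to be read against a shift of that size.

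Mmp3, Mmp10 and Mmp13 lie in a cluster of Mmp genes on chromosome 9 and were the members with almost no reads in -LIF-ESCs. Their promoters are shown because they share a pair of short motifs that the promoters of the other members at hand lacked. Each line gives the 120 bases before the annotated transcription start on the plus strand (RefSeq, GRCm38.p6), at chr9:7272394-7272513 for Mmp13, chr9:7445702-7445821 for Mmp3 and chr9:7502222-7502341 for Mmp10, with matches on either strand to TGAGTCA (the AP-1 core) and to TATAAA, the TATA box, in capitals.
Mmp13: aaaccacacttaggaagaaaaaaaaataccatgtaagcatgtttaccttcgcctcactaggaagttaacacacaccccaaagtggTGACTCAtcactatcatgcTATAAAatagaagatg
Mmp3: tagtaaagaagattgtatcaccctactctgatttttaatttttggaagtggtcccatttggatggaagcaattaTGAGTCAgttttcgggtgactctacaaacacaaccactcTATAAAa
Mmp10: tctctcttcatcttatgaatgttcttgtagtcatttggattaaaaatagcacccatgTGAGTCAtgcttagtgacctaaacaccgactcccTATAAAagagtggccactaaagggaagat
The first base of the AP-1 match lay 35 bases upstream of the start in Mmp13, 46 in Mmp3 and 63 in Mmp10, and that of the TATA box match 16, 7 and 29 bases upstream. RefSeq promoters of 300 bases, with 250 of them upstream of the start, were at hand for 7 of the 9 genes (not for Mmp2 and Mmp9). The AP-1 letters stood in 3 of these 7 promoters and in 5.20% of all 32851 promoters of this length. TATAAA, searched on both strands, stood in the same 3 promoters and in 13.6% of all promoters, and both motifs stood together in 309 promoters (0.941%). The letters TTCNNNGAA, the core bound by Stat factors, were in none of the 7 promoters and in 8.30% of all. The ETS core AGGAAG, searched on both strands, was found in Mmp13, Mmp3, Mmp14, Timp1 and Timp3, and in 35.4% of all promoters. A match of letters is a description of these windows and no evidence of binding.

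Mmp3 (chr9:7445822-7455975), which encodes stromelysin-1, a proteinase that cuts many matrix proteins and activates other pro-Mmps, had 0 reads in both -LIF-ESC libraries. The LIF libraries held 89.7 and 94.9 TPM and the OSM libraries 107 and 104 TPM. All 4 cytokine libraries were thus high and both libraries without cytokine empty. Counted against a limit of 3 reads per library, its level with LIF was at least 566-fold higher than without cytokine, and with OSM at least 645-fold higher. By the fitted log2 fold change of TPM + 1, which was 6.54 and 6.73, it had rank 5 among the 18556 genes in each comparison.

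Mmp10 (chr9:7502352-7510240), which encodes stromelysin-2, also had 0 reads in both -LIF-ESC libraries. Its level was 27.1 and 24.8 TPM with LIF, at least 152-fold higher, and 31.6 and 33.6 TPM with OSM, which was at least 191-fold higher. Mmp3 and Mmp10 are similar in sequence: 140 of the 1752 stretches of 50 bases in Mmp3 transcripts also occur in Mmp10, so that part of their reads could have been exchanged or dropped in counting. Mmp13 (chr9:7272514-7283331), which encodes collagenase 3, had 0 reads in one -LIF-ESC library and 1 read in the other. The LIF libraries stood at 18.3 and 18.4 TPM and the OSM libraries at 23.0 and 20.5 TPM. The ratio to -LIF-ESCs was 1012 (95% exact counting interval 181 to 40023) with LIF and 1193 (214 to 47165) with OSM, intervals that cover counting error only.

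**Figure D1:**
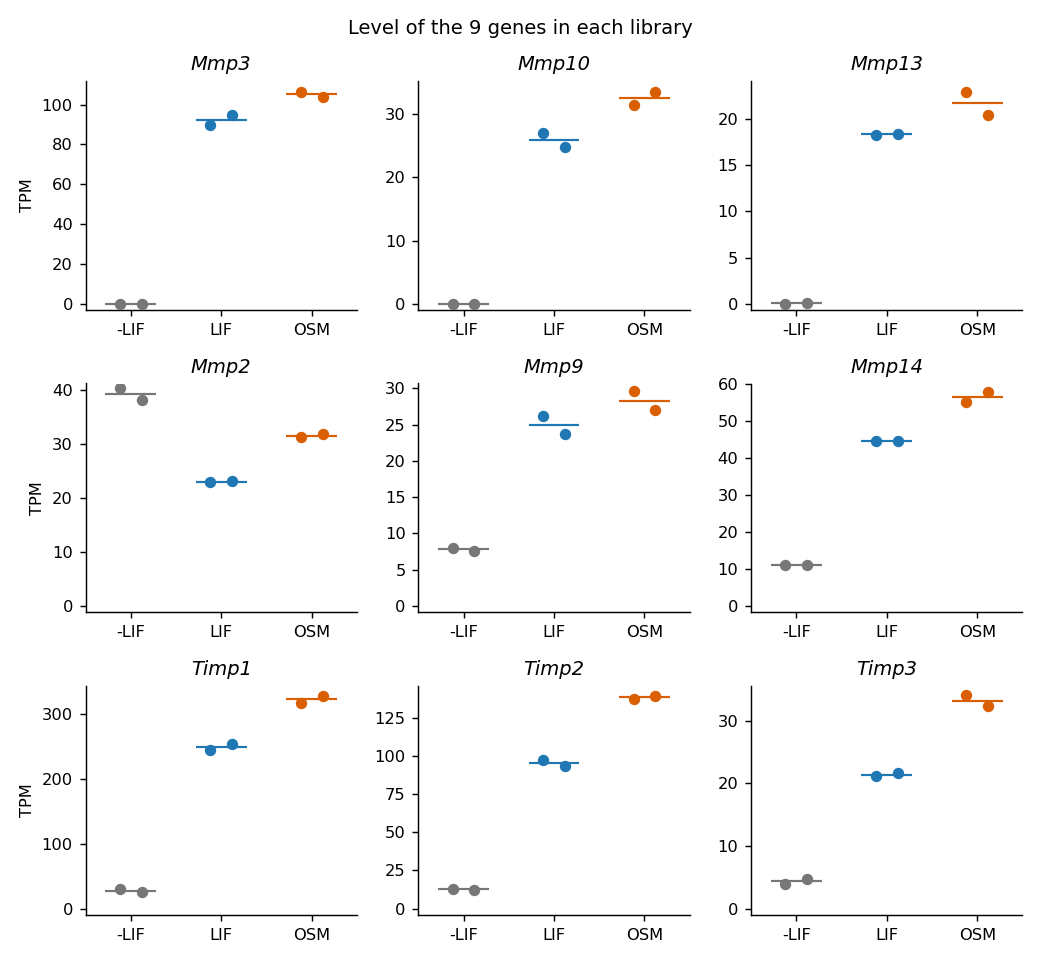
Level in TPM (vertical axes, linear, each panel with its own range) of the 9 genes in the 2 libraries of each medium (horizontal axis). Points are libraries and lines are group means. Mmp3, Mmp10 and Mmp13 lie at or near 0 without cytokine, Mmp2 is the only gene that is highest without cytokine, and for all 9 genes both OSM-ESC libraries lie above both LIF-ESC libraries.

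The 3 genes were not neighbours within the cluster. In the order along the chromosome, Mmp12 and Mmp1b lie between Mmp13 and Mmp3, Mmp1a lies between Mmp3 and Mmp10, and Mmp27 follows Mmp10. The start of Mmp3 is 173 kb and that of Mmp10 230 kb from the start of Mmp13 (GENCODE annotation, GRCm38). Mmp12, Mmp1b, Mmp1a and Mmp27 reached at most 0.164, 0.956, 0.448 and 0.112 TPM in any library. None of them passed the filter, while the members on either side of them were above 18 TPM in every cytokine library. Mmp8, Mmp20 and Mmp7 of the same cluster had no row in the expression table and were not analysed here.

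**Figure D2:**
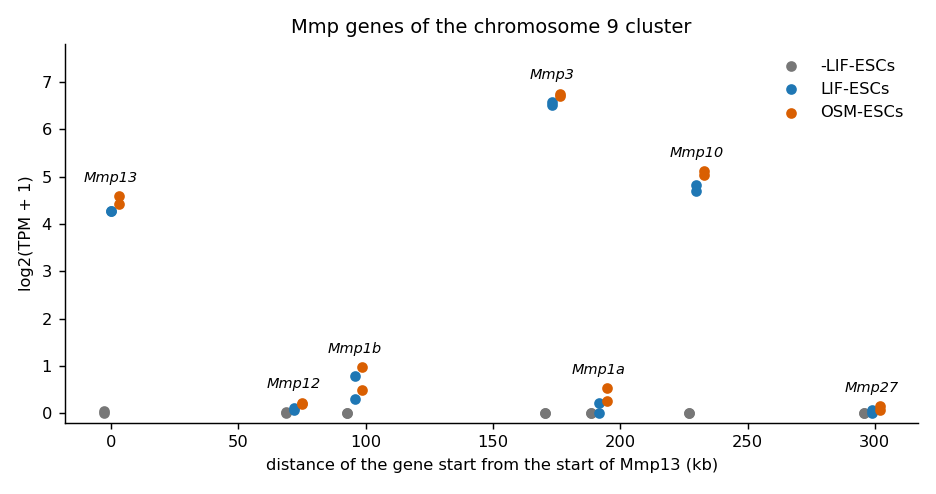
Level as log2(TPM + 1) (vertical axis) of the Mmp genes of the chromosome 9 cluster against the distance of each gene start from that of Mmp13 in kb (horizontal axis). Points are single libraries, with the 3 groups drawn slightly apart. Mmp13, Mmp3 and Mmp10 are high in LIF-ESCs and OSM-ESCs, and Mmp12, Mmp1b, Mmp1a and Mmp27 stay under 1 TPM in every library.

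The gelatinases Mmp2 and Mmp9 cut denatured collagen and the type IV collagen of basement membranes. Mmp9 (chr2:164940780-164955850) was at 7.99 and 7.59 TPM in the -LIF libraries, 26.2 and 23.6 TPM in the LIF libraries and 29.6 and 27.0 TPM in the OSM libraries. Its mean was 3.20 times as high with LIF and 3.63 times as high with OSM as without cytokine. Mmp2 (chr8:92827291-92853420) was highest without cytokine, with 40.4 and 38.2 TPM with no cytokine, 23.0 and 23.1 TPM with LIF and 31.3 and 31.8 TPM with OSM. It was the only member that was lower with cytokine, at 0.586 and 0.803 of its level in -LIF-ESCs, with no overlap between the groups. After rescaling, its log2 fold changes went from -0.74 to -0.91 with LIF and from -0.31 to -0.49 with OSM.

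Mmp14 (chr14:54431612-54445364) encodes MT1-MMP, a membrane-bound collagenase that activates pro-Mmp2 at the cell surface together with Timp2. Its level was 11.1 and 11.2 TPM without cytokine, while the LIF libraries held 44.6 and 44.4 TPM and the OSM libraries 55.2 and 57.8 TPM. The mean was thus 3.99 and 5.06 times as high with LIF and OSM as without cytokine. Mmp14 and Timp2, which act together on pro-Mmp2, were both higher with cytokine where the Mmp2 transcript itself was lower.

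Timp1 (chrX:20870166-20874735), a secreted inhibitor of most soluble Mmps, was the most abundant member with either cytokine. It was at 29.8 and 24.9 TPM in the -LIF libraries, 244 and 254 TPM in the LIF libraries and 316 and 327 TPM in the OSM libraries, or 9.09 and 11.8 times the level without cytokine. Timp2 (chr11:118301069-118355740), which inhibits Mmp14 as well as the soluble enzymes, was at 12.7 and 12.5 TPM with no cytokine, 97.8 and 93.6 TPM with LIF and 138 and 140 TPM with OSM. These were 7.59-fold and 11.0-fold differences of the means, and no library of one group reached the range of another.

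Timp3 (chr10:86300372-86349506), which binds to the matrix and also inhibits the sheddase Adam17, had the lowest level of the inhibitors. It was at 3.92 and 4.79 TPM without cytokine, while the LIF libraries held 21.2 and 21.6 TPM and the OSM libraries 34.1 and 32.4 TPM, 4.92 and 7.63 times the level without cytokine. Timp3 lies inside the gene Syn3, which is on the opposite strand, and 1733 of its 8144 exon bases (21.3%, chr10:86347774-86349506) are annotated as exon of both. The strand setting of the counting is not given in the sources used here, so that reads of this stretch cannot be told apart. Syn3 was listed at 1.09 and 1.26 TPM in the -LIF libraries, 6.02 and 5.71 TPM in the LIF libraries and 9.03 and 8.50 TPM in the OSM libraries. Its ratio to Timp3 stayed between 0.262 and 0.284 in the 6 libraries.

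Over the 9 genes, LIF had 8 called higher and 0 lower against -LIF-ESCs, where a call needed a limma adjusted p below 0.05 and a difference of at least 2-fold. Of all genes tested, 13.3% were called higher and 8.09% lower. For OSM the counts were also 8 and 0, beside 14.2% and 7.86% of all genes. These contrasts chose the genes, and both share the -LIF-ESC libraries, so the counts are no result about the genes. The median log2 fold change of the 9 genes was 2.83 with LIF and 3.36 with OSM, and the values ran from -0.74 to 6.54 and from -0.31 to 6.73. In bulk RNA of this kind, fewer cells of a type and less RNA per cell cannot be told apart.

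The makeup of the Mmp transcripts differed between media. The 6 Mmp genes summed to 59.5 and 57.1 TPM with no cytokine, 229 and 229 TPM with LIF and 277 and 275 TPM with OSM. Mmp2 made up 67.4% ± 0.64 (SD, n = 2) of this sum without cytokine, 10.1% ± 0.036 with LIF and 11.4% ± 0.22 with OSM. Mmp3, Mmp10 and Mmp13 together held 0.035% of it without cytokine, 59.6% with LIF and 57.8% with OSM. The sum was thus mostly gelatinase transcript without cytokine and mostly stromelysin and collagenase 3 transcript with either cytokine.

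The 3 Timp genes summed to 46.5 and 42.2 TPM without cytokine, while the LIF libraries held 363 and 369 TPM and the OSM libraries 488 and 500 TPM. Timp1 held 61.6%, 68.0% and 65.2% of these sums on average. The ratio of summed Timp to summed Mmp transcripts was 0.782 and 0.739 in the -LIF libraries, 1.59 and 1.61 in the LIF libraries and 1.76 and 1.82 in the OSM libraries. There were fewer Timp than Mmp transcripts of these genes without cytokine and more with either cytokine. The size of this ratio depends on the genes summed, as Mmp11, which is not among the 9 genes, was the most abundant Mmp gene of the table at 137 and 140, 469 and 465, and 403 and 420 TPM in the 3 groups. Over all 20 Mmp genes of the table, the mean ratio was 0.195 without cytokine, 0.508 with LIF and 0.690 with OSM. This sum was chosen after seeing the data, and by it there were fewer Timp than Mmp transcripts in all 3 groups.

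**Figure D3:**
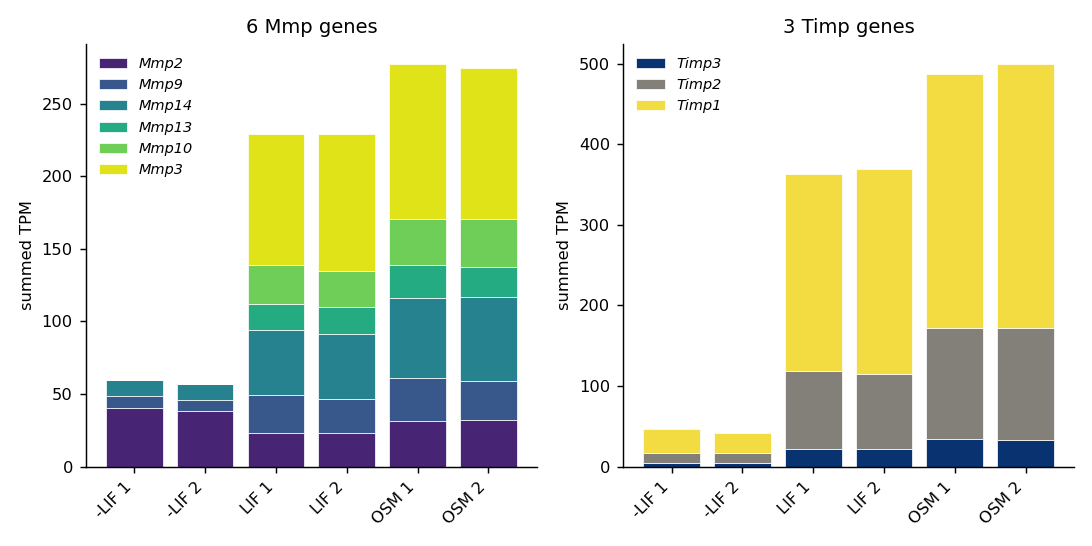
Summed TPM (vertical axes, from 0) of the 6 Mmp genes (left) and the 3 Timp genes (right) in each library (horizontal axes), with each gene as a part of the bar. Mmp2 takes most of the Mmp bar in both -LIF-ESC libraries (67.4% on average), Mmp3 is the largest part in the other 4 libraries, and Timp1 is the largest part of every Timp bar.

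The order of the levels differed accordingly. In -LIF-ESCs, Mmp2 had the highest level, followed by Timp1, Timp2, Mmp14, Mmp9 and Timp3, each step without overlap of the libraries, and Mmp13, Mmp10 and Mmp3 at the end did not differ beyond their spread. In LIF-ESCs the order was Timp1, Timp2, Mmp3, Mmp14, Mmp10, Mmp9, Mmp2, Timp3 and Mmp13, and the libraries of Timp2 and Mmp3, and those of Mmp10 and Mmp9, overlapped. In OSM-ESCs it was Timp1, Timp2, Mmp3, Mmp14, Timp3, Mmp10, Mmp2, Mmp9 and Mmp13, and the libraries of Timp3 and Mmp10, and those of Mmp10 and Mmp2, overlapped. Timp3 stood at place 8 with LIF and at place 5 with OSM.

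The comparison of OSM-ESCs with LIF-ESCs was not used to choose the genes and was tested with limma on log2(TPM + 1), with adjustment over all 18556 genes. Timp2 and Mmp2 rose with OSM over LIF. The mean of Timp2 was larger by 44.9% with OSM (log2 fold change 0.53, SE 0.04, adjusted p = 0.026 in limma), and that of Mmp2 by 37.0% (0.44, SE 0.05, adjusted p = 0.0424 in limma). Both calls were lost when any of the 6 libraries was left out, where the adjusted p in limma reached up to 0.239 and 0.261. The same was true of every list gene named below for a difference between the cytokines.

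The other 7 genes did not pass the adjusted threshold in this comparison. Timp3 had the largest difference, with a mean 55.1% above that in LIF-ESCs (log2 fold change 0.61, 95% interval 0.38 to 0.84, adjusted p = 0.0684 in limma). Mmp14 was 26.9% higher (0.34, interval 0.23 to 0.45, adjusted p = 0.0603 in limma) and Timp1 29.3% higher (0.37, interval 0.15 to 0.59, adjusted p = 0.155 in limma). Of the chromosome 9 cluster, the log2 fold change was 0.32 for Mmp10 (interval 0.13 to 0.51), 0.23 for Mmp13 (0.02 to 0.44) and 0.19 for Mmp3 (0.06 to 0.32). These intervals overlapped those of Mmp14 and Timp1. Mmp9 had the smallest difference at 0.18, and its interval of -0.01 to 0.37 was the only one to include 0. The upper bounds show that a 2-fold difference between the cytokines lay outside the interval of all 9 genes.

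Both OSM-ESC libraries were above both LIF-ESC libraries for 9 of the 9 genes, which held for 26.3% of all genes tested. By the limma adjusted p alone, at 0.05, OSM had 2 of the 9 genes higher and 0 lower than LIF, beside 0.463% and 0.129% of all genes, and 8 of the 9 were higher at an unadjusted p under 0.05, beside 9.8% of all genes. With the additional limit of 2-fold, 0 of the 9 genes were called, beside 0.0323% of all genes called higher and 0.0485% called lower, and a limma voom test on recovered reads also called 0. Without that limit, voom gave an adjusted p under 0.05 for 7 of the 9 genes, all but Mmp9 and Mmp13, and for 5.07% of the 17267 genes it tested in the higher direction. With 2 libraries a group, an exact permutation test of a single gene could not go below p = 0.333, and the p values measure the spread between these libraries only.

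**Figure D4:**
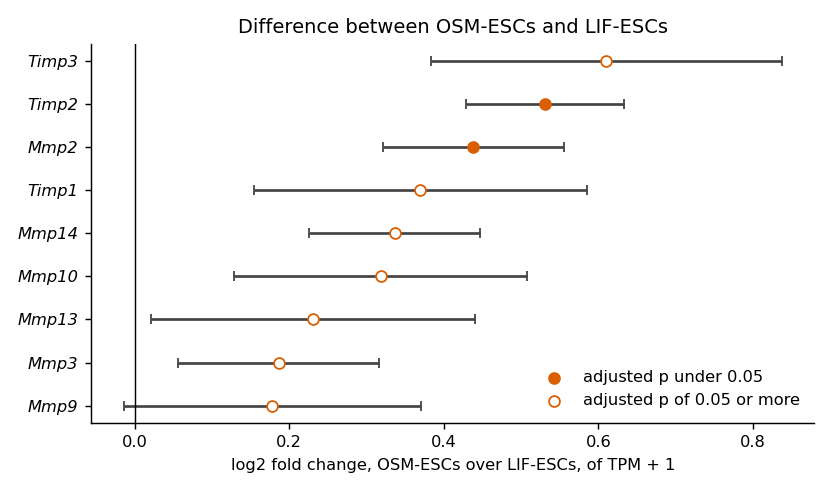
Log2 fold change of TPM + 1 in OSM-ESCs over LIF-ESCs (horizontal axis) for the 9 genes (vertical axis), with 95% confidence intervals from limma (2 libraries a group). Filled points have an adjusted p under 0.05. All 9 estimates are above 0, from 0.18 for Mmp9 to 0.61 for Timp3, and only Timp2 and Mmp2 are filled.

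Fibroblasts express Mmp2, Mmp3, Mmp14 and the Timps, and MEFs had been the feeder layer before the transfer, so fibroblast markers were measured beside the 9 genes. Of 22 markers, 21 were tested, and 19 rose and 0 fell in both comparisons with -LIF-ESCs (18 and 0 of 20 by voom). Of all genes tested, 13.3% were called higher and 8.09% lower with LIF, and 14.2% and 7.86% with OSM. These shares stand beside each list count below. This list and those below were drawn up with earlier results of these data known, so their counts against -LIF-ESCs are a description. Col5a1 was the marker with the other direction, lower by less than 2-fold with LIF and with OSM (log2 fold changes -0.82 and -0.24, adjusted p = 4.24e-05 and 0.00345 in limma). Lox, a collagen cross-linking enzyme, was at 0.0735 and 0.0894 TPM in the -LIF libraries, 112 and 112 TPM in the LIF libraries and 155 and 149 TPM in the OSM libraries. The summed markers ran from 152 to 159 TPM without cytokine, 718 to 725 TPM with LIF and 967 to 988 TPM with OSM. Of the markers, Fap was at 0 in both -LIF-ESC libraries, and Col1a1 was at 25.0 and 22.8 TPM there. Between the cytokines, 5 of the 21 markers rose with OSM by the limma adjusted p (Col1a1, Col1a2, Col5a1, Lox and Fbln2), and their median log2 fold change was 0.40, beside 0.34 for the 9 genes. The part of fibroblast markers in the values of the 9 genes was not tested.

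Set against the summed fibroblast markers of the same library, a scale chosen after seeing the data, the groups stood otherwise. The makeup of this sum differed between the media. Without cytokine its largest parts were Fstl1, Col5a1 and Col1a1, at means of 47.6, 42.9 and 23.9 TPM. With LIF they were Fstl1, Fbln2 and Lox, at 119, 116 and 112 TPM, while Fbln2 and Lox were at 1.78 and 0.0814 TPM without cytokine. Per 100 TPM of markers, -LIF-ESCs are thus set against a different mix of genes than the cytokine groups. The 6 Mmp genes held 37.4 and 37.5 TPM per 100 TPM of markers without cytokine, 31.6 and 31.9 with LIF and 28.1 and 28.4 with OSM. The 3 Timp genes held 29.3 and 27.8 per 100 without cytokine, 50.1 and 51.4 with LIF and 49.4 and 51.7 with OSM. On this scale, both OSM-ESC libraries were above both LIF-ESC libraries for 2 of the 9 genes (Timp2 and Timp3). They were below them for 4 (Mmp3, Mmp9, Mmp13 and Mmp14) and overlapped for 3. The marker sum was itself higher with OSM than with LIF, which lowers any gene set against it. The share of all genes on this scale was not computed, so these counts are no result about the 9 genes. Mmp3 was at 12.4 and 13.2 per 100 with LIF and 10.8 and 10.7 with OSM, Timp3 at 2.93 and 3.01 against 3.45 and 3.35, and Mmp2 at 3.17 and 3.22 against 3.17 and 3.29.

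Markers of other cell types also differed between the groups. Of 7 trophoblast markers tested, 6 fell with LIF and 5 with OSM, and their sum went from between 1825 and 1826 TPM without cytokine to between 59.0 and 59.8 TPM with LIF and between 67.9 and 73.8 TPM with OSM, mostly through the keratins Krt8 and Krt18. Of 9 parietal and primitive endoderm markers tested, of which Pdgfra is also in the fibroblast list, 6 rose and 0 fell with either cytokine, and their sums were 352 to 356, 364 to 372 and 399 to 412 TPM without cytokine, with LIF and with OSM. Most of these sums was Sparc, at 318 and 314, 225 and 216, and 275 and 264 TPM, which was lower with either cytokine by less than 2-fold. In OSM-ESCs over LIF-ESCs the median of the 9 markers was -0.15 on the log2 scale, 0 passed the adjusted p in limma (6 at an unadjusted p under 0.05), and voom called 2 lower (Sox7 and Sox17). Pluripotent cell markers summed to 5423 to 5439 TPM without cytokine, 7018 to 7064 TPM with LIF and 6536 to 6573 TPM with OSM, and 2 of 8 rose with either cytokine, Esrrb and Pou5f1, the latter under the 2-fold limit after rescaling. Nanog was lower with either, at 436 and 431 TPM without cytokine, 289 and 291 TPM with LIF and 270 and 252 TPM with OSM, by less than 2-fold (log2 fold changes -0.58 and -0.73, adjusted p = 0.000144 and 6.37e-05 in limma). The study, in contrast, lists Nanog among the genes higher with LIF and OSM in its RNA-seq, and reports less Nanog protein in -LIF-ESCs. The cause of this difference was not tested. The part of these markers in the values of the 9 genes was not tested.

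Leukocytes are a known source of Mmp9. Of 7 leukocyte markers in the table, 3 were tested, 0 rose and 1 fell with either cytokine (Cd68), and their sums were 46.8 to 48.2, 22.9 to 25.3 and 23.6 to 24.7 TPM in the 3 groups. Cd68 held most of these sums. Itgam was at 0.686 and 0.642 TPM without cytokine, 1.10 and 1.43 TPM with LIF and 1.16 and 1.53 TPM with OSM, under the 2-fold limit on the scale of TPM + 1 (log2 fold changes 0.44 and 0.49, adjusted p = 0.0503 and 0.0365 in limma). The macrophage and myeloid genes Adgre1, Lyz2 and Tyrobp were at 0 in -LIF-ESCs and at most 0.127, 0.602 and 0.297 TPM elsewhere. Of 5 endothelial markers, 2 were tested and 0 were called in any comparison in limma or voom (1, Pecam1, had an unadjusted p under 0.05 in each), at sums of 30.4 to 31.1, 41.8 to 42.4 and 34.2 to 36.1 TPM. Pecam1 was higher than in -LIF-ESCs by 0.53 with LIF and 0.26 with OSM on the log2 scale, under the 2-fold limit (adjusted p = 0.00025 and 0.00412 in limma). It held most of these sums, at means of 25.9, 37.9 and 31.1 TPM. Cdh5, Tie1 and Kdr, too low to be tested, went the other way. Their means were 0.347, 0.527 and 0.470 TPM without cytokine, 0.102, 0.0989 and 0.235 TPM with LIF and 0.0804, 0.0872 and 0.252 TPM with OSM.

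The other Mmp genes did not move as a group. Of 14 in the table, 8 were tested, and 3 rose and 2 fell in both comparisons with -LIF-ESCs. Mmp11 (stromelysin-3) rose by 1.75 with LIF (adjusted p = 3.66e-06 in limma) and by 1.57 with OSM (adjusted p = 4.47e-06 in limma) on the log2 scale, and Mmp19 and Mmp28 rose by between 1.04 and 1.24. The membrane-bound Mmp15 fell by 1.52 and 1.53 and Mmp25 by 1.42 and 1.21. After rescaling, Mmp19 with LIF and Mmp28 with OSM stayed higher but under the 2-fold limit. The median of the list was 0.27 and 0.53, beside 0.17 and 0.18 over all genes tested, and between the cytokines 0 of the 8 had an adjusted p under 0.05 in limma (1 at an unadjusted p under 0.05, and 1 of 7 by the adjusted p of voom).

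Of 4 genes in the list of other inhibitors, 2 rose and 1 fell with either cytokine, and the riser Pcolce is named as an enhancer. Tfpi2, a serine proteinase inhibitor of the matrix, rose from 0.253 and 0.246 TPM to 12.4 and 14.2 TPM with LIF and to 16.4 and 15.5 TPM with OSM (adjusted p = 7.25e-06 and 5.79e-06 in limma). Pcolce, the procollagen C-proteinase enhancer, rose by 1.23 and 1.33 on the log2 scale, and the plasma proteinase inhibitor A2m fell by 1.48 and 1.75. Reck, a membrane-anchored inhibitor of Mmp2, Mmp9 and Mmp14, was 0.76 and 0.62 higher and did not pass the 2-fold limit.

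Plasmin activates several pro-Mmps. Of 8 plasminogen activation genes tested, 3 rose with LIF and 4 with OSM, and S100a10, which tethers plasminogen to the cell surface, fell by 1.55 and 1.23 on the log2 scale. Plau, the urokinase, was at 5.78 and 4.18 TPM with no cytokine, 18.2 and 18.4 TPM with LIF and 22.6 and 20.8 TPM with OSM. Its inhibitors Serpine2 (1.60 and 1.97 on the log2 scale) and Serpinb2 (2.61 and 2.98, from 0 TPM) rose too, and the activator Plat rose with OSM (1.23). The list thus held risers that form plasmin and risers that prevent its formation. The plasminogen receptor Anxa2 rose in OSM-ESCs over LIF-ESCs, by 0.47 (adjusted p = 0.0293 in limma). Plasminogen itself (Plg) was at most 0.128 TPM in any library.

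Of 9 tested genes for the activation or uptake of Mmps at the cell surface, 5 rose and 0 fell with either cytokine. They were Cav1 (3.30 and 3.73 on the log2 scale), Cd44, a docking receptor for Mmp9 and Mmp14 (2.48 and 2.93), the proprotein convertase Pcsk6 (1.56 and 1.36), Itgav (1.15 and 1.40) and Lrp1, a receptor that clears Mmp-Timp complexes (1.06 and 1.74). After rescaling, Itgav and Lrp1 were under the 2-fold limit with LIF. Furin, the convertase that activates pro-Mmp14, was between 12.3 and 14.5 TPM in every library. Lrp1 also rose in OSM-ESCs over LIF-ESCs, by 0.69 (adjusted p = 0.0256 in limma).

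Of 13 tested ADAM and ADAMTS proteinases, 2 rose and 1 fell with either cytokine, at a median of 0.07 and -0.01 on the log2 scale. Adam12 rose by 1.22 and 1.76, Adam9 by 1.14 and 1.45 (under the 2-fold limit with LIF after rescaling), and Adamts15 fell by 2.65 and 2.71. Adam17, the sheddase that Timp3 inhibits, was between 16.7 and 18.2 TPM in every library.

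Of 14 AP-1, ETS and Runt factors, the first 2 being the families named for promoter motifs above, 4 rose and 1 fell with either cytokine. The AP-1 subunit Fosl1 was at 0.983 and 1.39 TPM without cytokine, while the LIF libraries held 17.0 and 15.2 TPM and the OSM libraries 25.1 and 22.5 TPM (adjusted p = 2.36e-05 and 1.42e-05 in limma). Etv4 rose by 2.38 and 2.28 on the log2 scale, Elk3 by 1.71 and 2.16, and the Runt factor Runx2, which is known to act on Mmp13, by 1.00 and 1.40 (under the limit with LIF after rescaling). Jun fell by 1.73 and 1.52. In OSM-ESCs over LIF-ESCs, Fos fell by 0.65 (adjusted p = 0.0239 in limma) and Fosb by 0.40 (adjusted p = 0.0474 in limma), while Fosl1 and Fosl2 had log2 fold changes of 0.54 and 0.45 and did not pass (adjusted p = 0.147 and 0.0699 in limma).

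**Figure D5:**
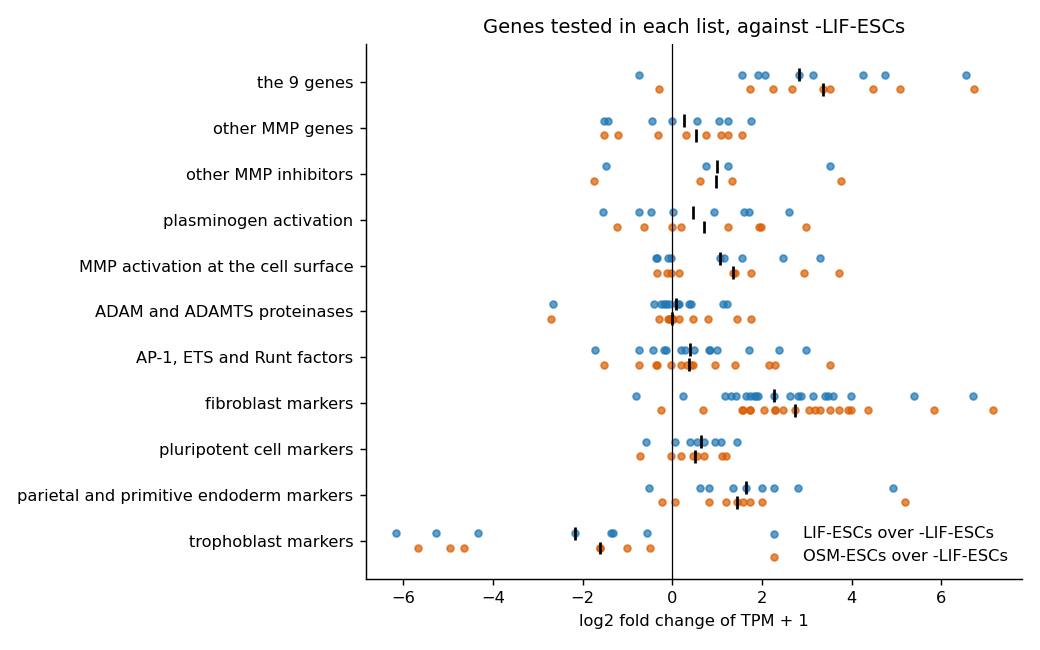
Log2 fold change of TPM + 1 (horizontal axis) for the genes tested in each list (vertical axis), in LIF-ESCs and in OSM-ESCs over -LIF-ESCs. Points are genes and black bars are list medians. The 9 genes, with medians of 2.83 and 3.36, were chosen on these contrasts, the fibroblast markers have medians of 2.27 and 2.75, and the trophoblast markers lie below 0.

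The genes with the profile most like that of 4 of the members were sought among 10571 others, by the root mean square difference of centred log2(TPM + 1) over the 6 libraries, as a description. For Mmp3 these were Lox (0.173), Grem1 (0.218), Tnc (0.274), Ccl2 (0.303) and Mgp (0.412). For Timp1 they were Postn (0.0582), Ifi203, Cav1, Filip1l and Irf7 (0.112). Lox and Postn are in the list of fibroblast markers. For Timp3 they were Nbl1 (0.0687) and 4 Ugt1a genes that share exons with each other, and for Mmp9 they were Fam13b, Rbm45, Ahnak2, Uros and Os9, between 0.0559 and 0.059.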

How the data were processed

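Polyadenylated RNA of 6 libraries (2 each of -LIF-ESCs, LIF-ESCs and OSM-ESCs) was sequenced. According to the study's methods and the submitters' processing notes, reads were trimmed with Trimmomatic, aligned to mm10 with HISAT2 and counted per gene with featureCounts. The authors deposited one table of TPM values for 28584 genes. The annotation, the strand setting and the step from counts to TPM are not given in the sources used here, and the TPM of a library summed to between 999949 and 999966.

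The 9 genes and the other gene lists were chosen with earlier results of these data known. Named genes were the 9 members and, of each list, genes past the call or with a defining role, with the 3 largest differences. The values of genes that reached 1 TPM in 2 or more libraries were transformed to log2(TPM + 1) and fitted over all 6 libraries with limma 3.58.1 (R 4.3.3, eBayes with a trend, Benjamini-Hochberg adjustment), with 3 residual degrees of freedom. A gene was called at an adjusted p under 0.05 and an absolute log2 fold change of at least 1, so fold changes of low genes are understated by the pseudocount of 1. The fit was tested on simulated data. Replicates are separate libraries by the labels, which do not say whether they came from separate cultures, so their spread may be technical.

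Reads were recovered by multiplying TPM by the exon length of GENCODE M21 (GRCm38), for 28405 symbols matched once. Within 0.02 reads, 95.4% of these values were whole, as were all values of the 9 genes. Limits for genes at 0 were set at 3 reads per library. Alternatives were other filters, pseudocounts, scalings and spread estimates, single libraries left out, a replicate block and limma voom on recovered reads. Promoters were from RefSeq. Protein sequences were not used here, and 1 gene of the plasminogen activation list is not reported here.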

Additional observations from a re-analysis of the deposited data

Results flagged for a closer look

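Mmp2 and Timp2 were the members with an adjusted p under 0.05 between the cytokines in the limma fit of all 6 libraries. Voom on recovered reads gave an adjusted p under 0.05 for 7 of the 9 genes. Timp3 had the largest log2 fold change, 0.61, and did not pass in the limma fit (adjusted p = 0.0684 in limma). The log2 fold change of OSM-ESCs over LIF-ESCs was 0.44 for Mmp2 and 0.53 for Timp2 (adjusted p = 0.0424 and 0.026 in limma), and for each of them both OSM-ESC libraries were above both LIF-ESC libraries. Over 14 alternatives, the log2 fold change ran from 0.42 to 0.45 for Mmp2 and from 0.50 to 0.56 for Timp2, and the adjusted p in limma was under 0.05 in 5 of the 14 for each.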

How the results depend on the processing

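The genes were chosen on the contrasts with -LIF-ESCs, so their counts there are given as values and are no sign of stability: 8 were called higher in each alternative, and 0 lower but for Mmp2 under the adjusted p alone (1 gene with LIF and 1 with OSM). With a pseudocount of 0.1, those of Mmp3, Mmp10 and Mmp13, which had 0 or 1 read in -LIF-ESCs, went from 6.54, 4.75 and 4.25 to 11.60, 9.71 and 9.10 with LIF, since the pseudocount then sets their size. In OSM-ESCs over LIF-ESCs, 2 members had an adjusted p under 0.05, beside 4 with a filter of 5 TPM, 7 with voom on recovered reads, 0 without the trend of the spread and 0 with only the compared groups in the fit, and the range was 0 to 0 with a library left out; the cause was not tested, apart from the fewer samples of the last fits. Over all genes in that comparison, 6 were called higher and 9 lower. The counts were 13 higher without a filter, 3 higher with a filter of 5 TPM, 3 and 3 with a pseudocount of 0.1, 4 lower without the trend, 0 and 0 with only the compared groups (2659 genes at an unadjusted p under 0.05), 20 and 26 with voom, 86 and 24 under the adjusted p alone, and 0 to 1 higher and 0 to 0 lower with a library left out (1999 to 2677 genes at an unadjusted p under 0.05). Against -LIF-ESCs, the adjusted p alone gave 7822 higher and 4809 lower genes with LIF and 7958 and 4722 with OSM, the filter of 5 TPM left 996 lower with LIF, and voom gave 2218 lower with OSM. The share of calls that were higher went from 62.2% and 64.3% to 50.7% and 52.1% after rescaling and to 53.3% and 54.2% with voom. The ratio of summed Timp to Mmp went to 0.195, 0.508 and 0.690 with all Mmp genes of the table, since Mmp11 then holds most of the Mmp sum.

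The replicate numbers did not pair the libraries, as the correlations of same-numbered deviations were -0.04, -0.02 and 0.03. With a replicate block, 0 members and 0 genes in either direction passed in OSM-ESCs over LIF-ESCs in limma (2477 genes at an unadjusted p under 0.05, 20 higher and 26 lower by voom without the block), and the counts of members against -LIF-ESCs were 8 and 0. Depth limits the genes at 0 reads, whose fold differences are bounds set by 3 reads per library, and the number of libraries limits the comparison of the cytokines.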
